A study of Homo sapiens with 30 samples.

Results

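The 36 listed genes of amino acid supply and tRNA charging were followed across 30 microarrays of human tumour lines under hypoxia. They comprise enzymes that make amino acids and one-carbon units, plasma membrane amino acid transporters, aminoacyl-tRNA synthetases, and STC2 and VLDLR, which respond to the same stress factor but supply no amino acid. A gene was measured where a probe set of the custom Affymetrix array carried its symbol alone, and its brightest such probe set was used. Of the 36 listed genes, 31 were measured among 12690 genes in all. PHGDH, SHMT1, GPT2, SLC3A2 and CHAC1 had no probe set of their own symbol. Of the 31, PSPH, MTHFD1, CBS, VLDLR and YARS1 were too dim for the tests, which left 26 members among 7614 tested genes.

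RCC4 is a renal carcinoma line that lacks VHL, the recognition subunit of the ubiquitin ligase that degrades hypoxia-inducible factors in oxygen. It was compared with RCC4 cells labelled vhl wildtype, called VHL-restored here. Both were kept in an anoxic incubator with less than 0.01% oxygen for 0, 1, 2, 4, 6 or 18 h, and some cultures were returned to oxygen for 1 or 4 h after 18 h. HCT116, a colon carcinoma line, was profiled at 0, 12 and 24 h with p53 absent (p53-null) or present (p53 wild-type). H1299, a lung carcinoma line, was profiled at 0 and 24 h under the same pair of p53 labels. There were 20 RCC4, 6 HCT116 and 4 H1299 arrays, with 1 array per condition except RCC4 at 0 h and 18 h, which had 2 independent replicates per genotype. The labels name neither the clones nor the way in which VHL or p53 was put back or removed. Values are the deposited intensities, in which a null entry counts as 0, and in bulk RNA fewer expressing cells and less RNA per cell cannot be told apart. Levels and differences on the log2 scale are of log2(intensity + 16) after each array was centred on its median.

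Cells that run short of amino acids, or whose endoplasmic reticulum or oxygen supply fails, phosphorylate the translation factor eIF2α. General protein synthesis then falls while the mRNA of the transcription factor ATF4 is translated, and ATF4 with a C/EBP partner binds C/EBP-ATF response elements in genes for amino acid synthesis, uptake and tRNA charging. Severe hypoxia is a known trigger of this pathway through the kinase PERK, and this branch does not run through VHL.

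The labels were checked before any comparison. A set of 10 well-known hypoxia genes (BNIP3, ADM, NDRG1, PDK1, ENO2, P4HA1, HILPDA, PFKFB4, PGK1 and LDHA, chosen after their values were seen) were all higher in late hypoxia in both RCC4 genotypes, both HCT116 genotypes and p53-null H1299. On the arrays labelled H1299 p53 wild-type, 0 of these 10 were higher at 24 h and all were lower. BNIP3 read 0 on the p53-null 0 h array and 203 on the p53-null 24 h array, but 200 on the array labelled p53 wild-type 0 h and 5 on the one labelled 24 h. Across the 7614 tested genes the 24 h changes of the 2 H1299 genotypes correlated at -0.61. The array labelled p53 wild-type 0 h correlated best with the p53-null 24 h array (r = 0.987), and the one labelled 24 h correlated best with p53-null 0 h (r = 0.981). The labels were kept as deposited, and results that use these arrays are given with and without them. The lineage markers did not separate the lines: the renal marker PAX8 had a median intensity of 397 in RCC4, 140 in HCT116 and 125 in H1299, but the lung marker NKX2-1 was at 52.5 in both H1299 and HCT116, and the colon markers VIL1 and KRT20 were at 0 in all 3 lines.

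The arrays also fell into 2 sets by whether the deposited table leaves some of their entries empty (set 1) or none (set 2). Set 1 holds 18 arrays: replicate 1 of RCC4 at 0 h and 18 h, RCC4 at 2 h and 6 h, and all HCT116 and H1299 arrays. Set 2 holds 12 arrays: replicate 2 of RCC4 at 0 h and 18 h, RCC4 at 1 h and 4 h, and all reoxygenated cultures. The median of the listed intensities was 145 to 174 on set 1 arrays and 201 to 222 on set 2 arrays, and 18.4% to 40.4% of entries were null on an array. Most members also differed between the sets within RCC4, as described below, so RCC4 times are compared within a set or with the set as a term of the fit.

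The promoters of many members hold the core of the C/EBP-ATF response element. The core TGATGNAA was searched on both strands (TTNCATCA on the opposite strand) in RefSeq promoter windows of GRCh38.p14, 250 bases before to 50 after a start. Of the 36 listed genes, 29 had a window and 14 of these 29 held the core in at least 1 window, against 4.46% of all 27305 genes in the table. Among the listed synthetases 7 of 10 held it, against 0 of 9 cytosolic synthetases and complex subunits outside the list and 1 of 14 mitochondrial synthetases. The list holds genes placed there for their response to ATF4, such as STC2 and VLDLR. These shares may therefore depend on how the list was drawn up, and no test was run. A match is a run of letters and not a mapped site or a cause of any change. In ASNS, whose nutrient-sensing element is the best studied of the family, the core began 68 bases before the start. It is shown in capitals in chr7:97872429-97872516 (minus strand), read 5′ to 3′ along the gene.
ASNS: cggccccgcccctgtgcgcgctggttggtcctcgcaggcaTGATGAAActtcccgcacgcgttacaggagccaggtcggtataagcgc

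The 7 synthetases with the core are shown next because they make up most of the listed synthetases that had a window. Each line gives the 8-base core in capitals with 8 bases on either side, along the strand of the gene.
AARS1, chr16:70289678-70289701, minus strand: tctcgcagTTGCATCAgccaagtt
CARS1, chr11:3057410-3057433, minus strand: ggcggcggTTGCATCAgattctag
GARS1, chr7:30594837-30594860, plus strand: cgcggcgaTTTCATCAtgctccga
IARS1, chr9:92293695-92293718, minus strand: tcagcgcgTTGCATCAcctccgtg
MARS1, chr12:57488056-57488079, plus strand: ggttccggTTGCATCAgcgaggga
NARS1, chr18:57621807-57621830, minus strand: acgctctcTGATGCAAcgccggaa
TARS1, chr5:33440959-33440982, plus strand: cctttcgaTTGCATCAgctggtcc
The core began within 15 bases of the start in CARS1, IARS1, MARS1, NARS1 and TARS1, and farther upstream in GARS1 (33 bases before) and AARS1 (187 bases before). In 6 of the 7, all but NARS1, it lay on the strand opposite to the gene. The 4 measured transporters with the core follow.
SLC7A1, chr13:29595666-29595689, minus strand: cgcactgcTGATGAAAcctggcgc
SLC38A1, chr12:46266505-46266528, minus strand: gacccgaaTGATGAAAagggatca
SLC1A4, chr2:64989384-64989407, plus strand: gctcccgtTTGCATCAtctccagc
SLC1A5, chr19:46784896-46784919, minus strand: gaagtggcTGATGCAAgctgtcca
The core was also found in CHAC1 and SLC3A2, which the array did not measure. The tested members with and without the core did not stand apart in the changes described below: the median log2 change was 0.45 for the 12 with it and 0.60 for the 10 with a window and no core in p53-null H1299, -0.40 and -0.22 in HCT116, and 0.15 and 0.26 in RCC4.

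The widest rise across members came from 1 pair of arrays, p53-null H1299 at 24 h against 0 h. There, 23 of 26 tested members were higher at 24 h (56.2% of all tested genes were), with a median log2 difference of 0.53 against 0.02 for all tested genes. Of the 26, 10 members were at least 1.5-fold higher against 2.1% of all tested genes, and 1 member was at least 1.5-fold lower against 2.09%. With 1 array at each time the difference has no replicate check and no test.

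Among the enzymes, ASNS, which makes asparagine from aspartate and glutamine, read 401 at 0 h and 977 at 24 h in p53-null H1299. PSAT1, the aminotransferase of serine synthesis, read 141 and 294, and MTHFD2, the mitochondrial folate dehydrogenase, read 260 and 408. ALDH18A1 and PYCR1, the first and last enzymes of proline synthesis, read 6 and 23 and 168 and 263. All 5 were at least 1.5-fold higher on the log2(intensity + 16) scale, ALDH18A1 from a level near the bottom of the array. Of the transporters, SLC7A11, which imports cystine in exchange for glutamate, stood out at 91 and 388 (log2 difference 1.93). SLC1A4, an alanine, serine and cysteine transporter, went the other way at 301 and 189 (-0.61). STC2, a secreted glycoprotein induced by ATF4, was listed as null at 0 h and read 195 at 24 h. Of the synthetases, AARS1 read 586 and 974, EPRS1 195 and 392, and GARS1 327 and 647, while WARS1, which charges tryptophan, read 374 and 343. The other 7 tested synthetases were higher by 0.28 to 0.56.

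On the arrays labelled H1299 p53 wild-type the same genes ran in the opposite direction. From the array labelled 0 h to the one labelled 24 h, ASNS read 915 and 395, SLC7A11 418 and 77, PSAT1 356 and 160, and STC2 257 and null. Among the members 10 were at least 1.5-fold lower (1.6% of all tested genes), 0 were at least 1.5-fold higher (1.59%), and the median was -0.54. In all, 25 of 26 members had opposite signs in the 2 genotypes as labelled, against 61.8% of all tested genes, and 23 of them were higher at 24 h in p53-null cells. Compared across labels, the array labelled p53 wild-type 0 h differed from the p53-null 24 h array by a median of 0.03, and 0 of 26 members differed by 1.5-fold (0.657% of genes higher, 0.289% lower). The array labelled p53 wild-type 24 h differed from p53-null 0 h by -0.01, again with 0 of 26 past 1.5-fold (1.21% higher, 1.02% lower). Whether p53 or the labelling moves with this reversal cannot be told apart from these 4 arrays.

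**Figure D1:**
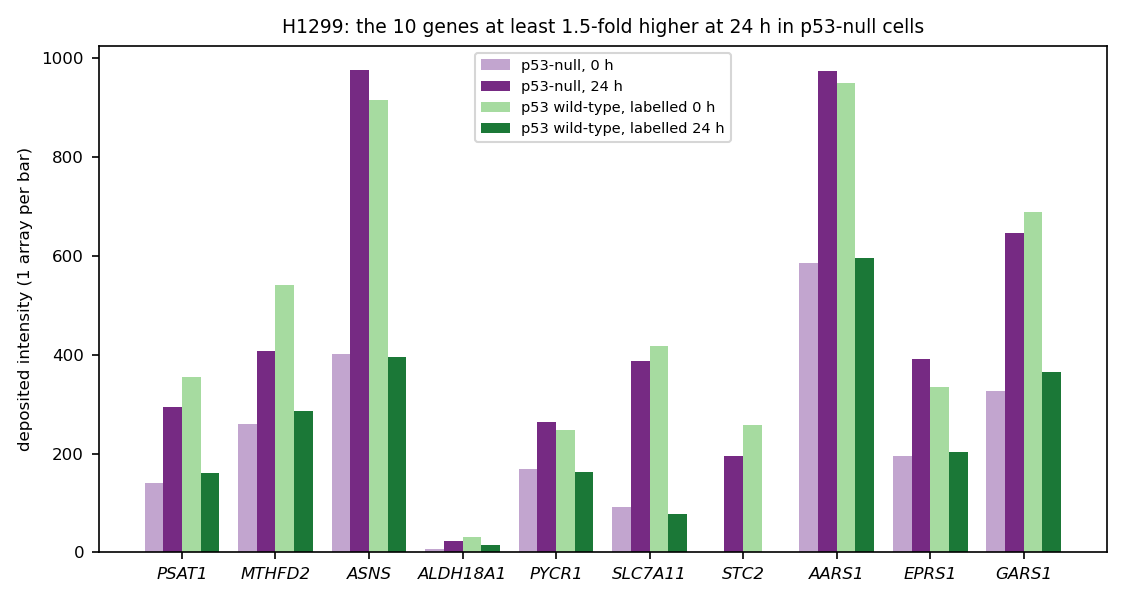
Deposited intensity (vertical axis, from 0) of the 10 members that were at least 1.5-fold higher at 24 h in p53-null H1299, with 1 bar per array. For each gene the p53-null 24 h bar and the bar labelled p53 wild-type 0 h are tall, as for ASNS at 977 and 915, and the other 2 bars are short, at 401 and 395.

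In RCC4, 18 h of hypoxia raised a small group of members by modest amounts. In the fit over all 20 RCC4 arrays, with genotype and array set as terms, 4 of 26 members passed the test (limma, Benjamini-Hochberg adjusted p under 0.05), all higher, against 2.96% of all tested genes (1.77% higher and 1.18% lower). They were STC2, the transporter SLC7A5, and the mitochondrial one-carbon enzymes MTHFD2 and SHMT2. The median log2 difference was 0.20 over the members and 0.03 over all tested genes. Above 0 were 21 of 26 members and 4871 of all 7614 tested genes.

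In VHL-null cells STC2 had 265 (replicate 1) and 758 (replicate 2) at 0 h, then 435 and 1050 at 18 h. In VHL-restored cells it read 130 and 445 at 0 h and 589 and 989 at 18 h. It was higher at 18 h in each of the 4 replicate pairs, but levels at 0 h and 18 h overlapped across the array sets. The log2 difference was 1.12 ± 0.191 (SE; adjusted p = 0.00641), a factor of 2.18, and the call held without any 1 array of the times compared. SLC7A5, which with SLC3A2 imports leucine and other large neutral amino acids, read 354 and 1315 at 0 h and 478 and 1614 at 18 h in VHL-null cells. In VHL-restored cells it read 389 and 807 at 0 h and 592 and 1310 at 18 h. It was higher at 18 h in all 4 pairs, by 0.54 ± 0.122 (adjusted p = 0.0269).

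The one-carbon enzymes moved less. MTHFD2 read 108 and 566 at 0 h and 159 and 674 at 18 h in VHL-null cells, and 162 and 401 then 206 and 586 in VHL-restored cells. It was higher by 0.44 ± 0.0996 (adjusted p = 0.0266), with every pair higher at 18 h. SHMT2, which makes glycine and a folate-bound carbon unit from serine, read 392 and 770 then 490 and 849 in VHL-null cells, and 362 and 449 then 507 and 604 in VHL-restored cells. It was higher by 0.38 ± 0.0864 (adjusted p = 0.0287), again in all 4 pairs. ASNS pointed the same way without passing, at 0.38 ± 0.114 (adjusted p = 0.0911), as did SLC7A1, an arginine and lysine transporter, at 0.31 ± 0.096 (adjusted p = 0.0942).

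The synthetases did not share this rise. Of the 11 tested, 0 passed, 7 were above 0 and 4 below, and the median was 0.02. Their differences ran from -0.21 ± 0.0731 for NARS1 (adjusted p = 0.139) to 0.27 ± 0.0771 for SARS1 (adjusted p = 0.0744). In the enzymes of the proline branch and of cysteine synthesis, ALDH18A1, PYCR1 and CTH lay between -0.05 and 0.25 and none passed. The calls other than STC2 rested on single arrays. The count of called members was 1 without VHL-null 18 h replicate 2, VHL-restored 0 h replicate 2 or either VHL-restored 18 h array, 2 without VHL-null 0 h replicate 1, and up to 5 without others. Over such omissions the count of all tested genes called ran from 74 to 344. The count of called members was 0 without the array set term (0.171% of all tested genes).

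**Figure D2:**
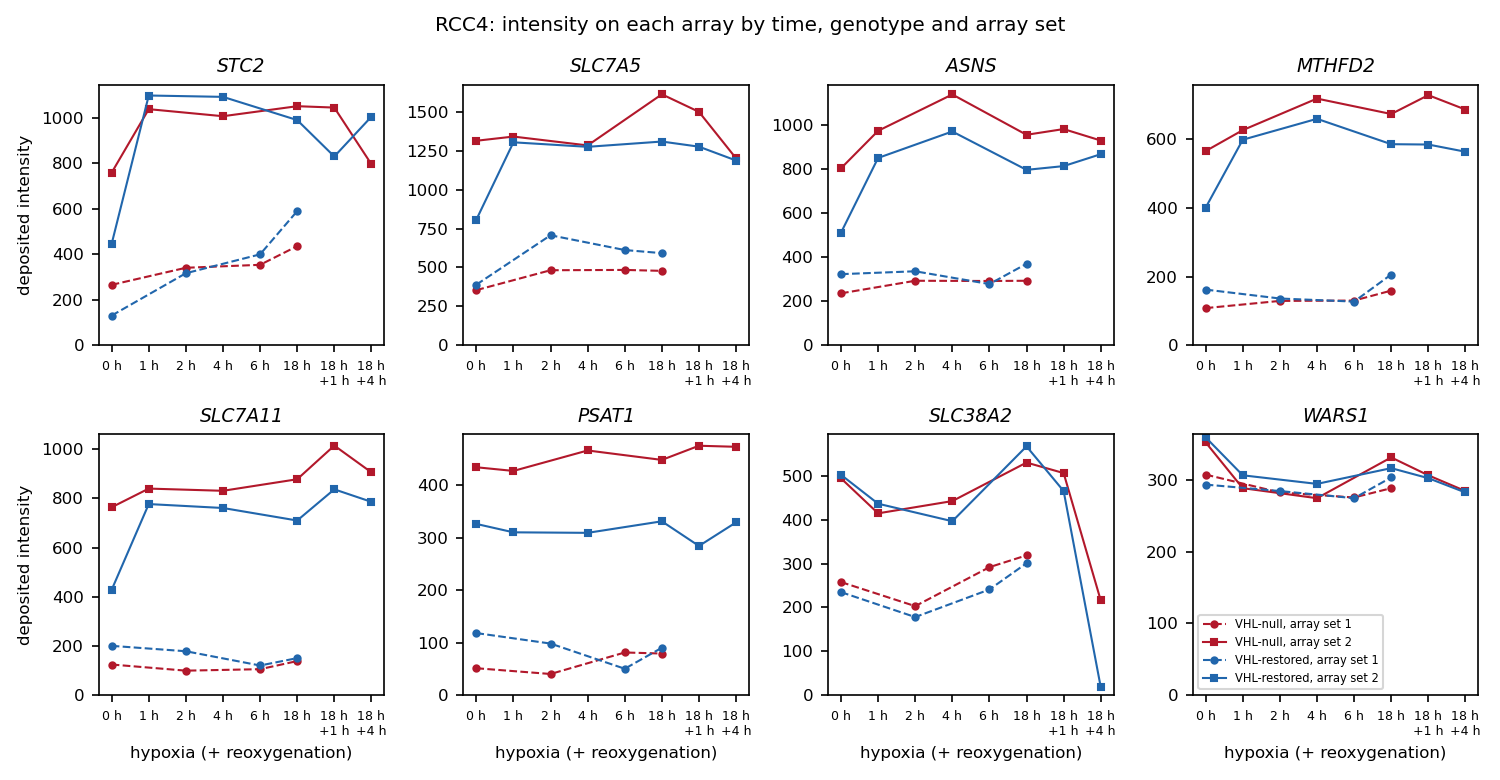
Deposited intensity (vertical axes, from 0) of 8 members on each of the 20 RCC4 arrays against hours of hypoxia and of reoxygenation after 18 h (horizontal axis, not to scale). Colours mark VHL genotype and line styles the array set. STC2 is lowest at 0 h in every course, SLC38A2 drops to 216 and 18 after 4 h of reoxygenation, and WARS1 stays between 275 and 360.

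The 2 genotypes were also compared over the 8 arrays at 0 h and 18 h. Without a replicate term none of the 26 members passed in any of the 5 contrasts, and few other genes did. At 18 h against 0 h, 0.0394% of all tested genes passed in VHL-restored cells and 0% in VHL-null cells. Between the genotypes, 0.118% passed at 0 h (0.105% higher and 0.0131% lower) and 0.0263% at 18 h, and the interaction gave 0%. At an unadjusted p under 0.05 the VHL-null hypoxia contrast held 51 genes and the interaction 45. The replicate numbers pair the arrays, since each number lies in 1 array set, and with the replicate as a block more calls were made. The p-values here measure only the spread between these samples.

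With the replicate block, hypoxia in VHL-restored RCC4 raised 5 members and lowered 0, against 6.58% of all tested genes called in either direction (3.7% higher and 2.88% lower). They were STC2 (log2 difference 1.64, adjusted p = 2.22e-06), SLC7A5 (0.68, adjusted p = 0.00463), SHMT2 (0.49, adjusted p = 0.0192), ALDH18A1 (0.44, adjusted p = 0.0289) and SLC7A1 (0.40, adjusted p = 0.0331). In VHL-null cells 0 members passed with the block, against 0.486% of all tested genes (0.276% higher and 0.21% lower). There 23 of 26 members were above 0 with a median of 0.19, against 4467 of all 7614 tested genes with a median of 0.02. The difference between the genotypes was itself called for 1 member with the block. The STC2 change was smaller in VHL-null cells by 1.03 on the log2 scale (interaction -1.03, adjusted p = 0.0323), where 0.565% of all tested genes passed (0.0657% higher and 0.499% lower). STC2 was also higher in VHL-null than in VHL-restored cells at 0 h with the block (0.79, adjusted p = 0.00214). Its level at 18 h was 435 and 1050 in VHL-null and 589 and 989 in VHL-restored cells, which overlap. Whether ATF4 or the factors that VHL degrades moved STC2 was not tested.

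A pair of synthetases were lower in VHL-null cells at 0 h with the block. EPRS1, the bifunctional glutamyl-prolyl enzyme, read 240 and 691 in VHL-null and 339 and 769 in VHL-restored cells (-0.37, adjusted p = 0.0303). NARS1 read 480 and 1092 against 675 and 1258 (-0.40, adjusted p = 0.0325). The 3 calls at 0 h compare with 7.51% of all tested genes (3.1% higher and 4.41% lower). At 18 h only SLC1A5, the glutamine transporter ASCT2, passed with the block, at 463 and 838 in VHL-null and 347 and 581 in VHL-restored cells (0.39, adjusted p = 0.018), where 7.59% of all tested genes did (3.62% higher and 3.97% lower). The members' median difference between genotypes was -0.02 at 0 h and -0.05 at 18 h.

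Earlier in hypoxia there was 1 array per genotype and time, so early differences are given within an array set. In VHL-restored cells of set 2, 7 of 26 members were at least 1.5-fold higher at 1 h than at 0 h (2.82% of all tested genes) and 8 were at 4 h (3.53%). STC2 read 445 at 0 h, 1097 at 1 h, 1091 at 4 h and 989 at 18 h. ASNS read 510, 849, 969 and 795 at the same times, and SLC7A11 read 428, 777, 761 and 710. For these genes the 1 h value was already as high as the 18 h value or higher. In VHL-null cells of set 2, STC2 alone was past 1.5-fold at 1 h after centring (0.73 on the log2 scale, from 758 to 1037 in intensity, 1.47% of all tested genes), and AARS1, ASNS, SARS1, STC2 and TARS1 were at 4 h (3.48%).

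All of these share 1 array at 0 h per genotype. In VHL-null cells that array had the lowest share of null entries of all 30 (18.4%, against 27.1% to 40.4% on the other set 2 arrays). The VHL-restored 0 h array of set 2 had 30.1% null entries. It was the lowest of the 6 VHL-restored arrays of set 2 for 19 of 26 members (41.2% of all tested genes). The VHL-null 0 h array was the lowest of the 6 VHL-null arrays of set 2 for 21 of 26 (43.8%). Set 1 gave fewer early differences. At 2 h, 0 members were past 1.5-fold in VHL-null cells (0.236%) and 2 were higher in VHL-restored cells (0.368%): STC2 (130 at 0 h, 316 at 2 h) and SLC7A5 (389 and 707). At 6 h, 0 were past it in VHL-null cells (0.407%), and in VHL-restored cells STC2 (399) and SLC7A5 (612) were higher (0.525%) while PSAT1 (118 then 50) and SLC7A11 (200 then 120) were lower (0.486%). In the 20-array fit of 6 h against 0 h, 0 of 26 members and 0% of all tested genes passed, with 305 genes at an unadjusted p under 0.05. The part of the 0 h arrays in the early differences was not tested.

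Return to oxygen left most members where they were, with 1 large exception. SLC38A2, the sodium-coupled transporter SNAT2 of small neutral amino acids, read 531 at 18 h of hypoxia, 507 after 1 h of reoxygenation and 216 after 4 h in VHL-null cells of set 2. In VHL-restored cells it read 568, 466 and 18. Both 4 h values lie below every other value of their set. The array that read 18 had the highest share of null entries of all 30 (40.4%), and 18 is close to the pseudocount of 16, so the log2 size there is imprecise; the part of the null entries was not tested. In the 20-array fit SLC38A2 fell by 2.47 on the log2 scale between 18 h of hypoxia and 4 h of reoxygenation (SE 0.411, adjusted p = 0.00378). The size differed with the array left out: it was -1.21 (adjusted p = 0.000188) without the VHL-restored 4 h array and -3.73 (adjusted p = 4.04e-10) without the VHL-null one. A single probe set measured this gene.

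NARS1 was the other of 2 members called after reoxygenation, against 2.63% of all tested genes (0.946% higher and 1.68% lower). It read 988 at 18 h and 1044 after 4 h of reoxygenation in VHL-null cells of set 2, and 1125 and 1235 in VHL-restored cells, higher by 0.40 ± 0.0967 (adjusted p = 0.0377). All 11 tested synthetases were above 0, with a median of 0.27. So were 21 of 26 members, with a median of 0.22, and 5443 of all 7614 tested genes, with a median of 0.07. That direction depended on the centring: without it the median of all tested genes was -0.17 and that of the members -0.02. Then 11 of 26 members were above 0 and NARS1 stood at 0.16. Uncentred, 0 members were called higher and 3 lower, against 13 higher and 2313 lower of all 7614 tested genes. Within set 2 alone the median over all 26 members was 0.04 in VHL-null and 0.29 in VHL-restored cells, against -0.02 and 0.13 for all tested genes. The NARS1 call was lost without the VHL-restored 4 h array (0.30, adjusted p = 0.311) or any of 9 others, and under other scalings. The count of members that passed moved with the array left out, and so did that of all tested genes. It is therefore not read as a trait of the members.

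HCT116 cells at 24 h showed the opposite direction in most members. Over the 6 HCT116 arrays, with p53 genotype and time as terms, 22 of 26 members were lower at 24 h than at 0 h. Of all 7614 tested genes 3158 were lower. The median log2 difference was -0.29 for the members and 0.03 for all tested genes. The test was passed by 7 members, 2 higher and 5 lower, against 3.81% of all tested genes. The p53 genotypes served as the replicates, since the labels give 1 array for each.

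The 2 that rose were STC2 and ALDH18A1. STC2 read 378, 704 and 653 at 0, 12 and 24 h in p53-null cells and 427, 744 and 732 in p53 wild-type cells. It was higher by 0.84 ± 0.0701 at 12 h (adjusted p = 0.019), the only one of 26 members called at that time (0.735% of all tested genes), and by 0.77 ± 0.0701 at 24 h (adjusted p = 0.0188). ALDH18A1 was dim, at 15, 32 and 48 in p53-null and 12, 25 and 34 in p53 wild-type cells, and was higher at 24 h by 0.95 ± 0.0764 (adjusted p = 0.0149).

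The 5 that fell at 24 h were PSAT1, SLC1A5 and the synthetases MARS1, NARS1 and IARS1. PSAT1 read 317, 281 and 178 in p53-null and 302, 242 and 117 in p53 wild-type cells, lower by 1.01 (-1.01 ± 0.122, adjusted p = 0.0296), a factor of 0.497. MARS1, the methionyl enzyme whose product starts every protein, read 569, 436 and 323 in p53-null and 570, 466 and 317 in p53 wild-type cells (-0.79 ± 0.0713, adjusted p = 0.0188). The 2 genotypes agreed closely for MARS1 at every time.

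NARS1 read 504, 510 and 326 in p53-null and 500, 382 and 291 in p53 wild-type cells (-0.67 ± 0.109, adjusted p = 0.0494). IARS1 read 658, 655 and 414 and then 695, 653 and 470 in the same order (-0.59 ± 0.0807, adjusted p = 0.0382). SLC1A5 read 405, 311 and 253 and then 475, 388 and 328 (-0.57 ± 0.0767, adjusted p = 0.0367). For all 5 the 24 h value was the lowest of its genotype, and the 0 h and 24 h values did not overlap. The calls came from these same arrays, so the lack of overlap is no separate support.

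By role, 10 of 11 tested synthetases were below 0 at 24 h (median -0.34), with GARS1 at 0.08, and all 7 tested transporters were (median -0.45), though single members beyond those named did not pass. ASNS read 965, 907 and 728 in p53-null and 1156, 1043 and 686 in p53 wild-type cells and missed the threshold (-0.56 ± 0.099, adjusted p = 0.0567). SLC7A11 read 523, 696 and 441 and then 767, 710 and 383 (-0.60 ± 0.174, adjusted p = 0.145). At 12 h the members were split, 12 above 0 and 14 below, with a median of -0.02. Of all 7614 tested genes 4651 were above 0, with a median of 0.04. The count of called members at 24 h was lower without any 1 of the 6 arrays, and the count of all tested genes also moved with the array left out. Each such fit leaves 1 array at 1 of the times, so these counts are not read further. The STC2 call at 12 h held without the p53 wild-type 0 h array and was lost without any other (adjusted p 0.0817 to 0.195).

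**Figure D3:**
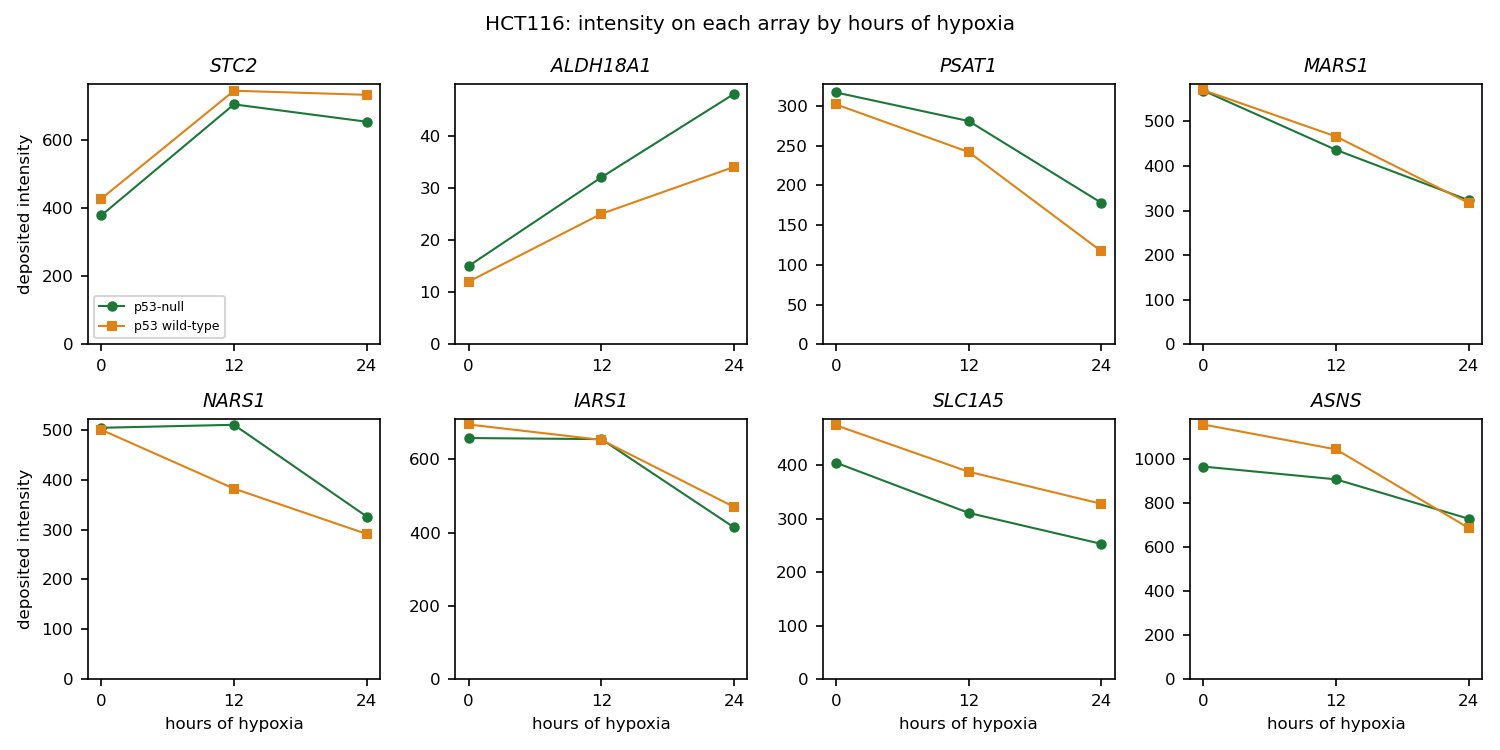
Deposited intensity (vertical axes, from 0) of 8 members on the 6 HCT116 arrays against hours of hypoxia, with 1 point per array and 1 line per p53 genotype. STC2 and ALDH18A1 end above their 0 h values, and PSAT1, MARS1, NARS1, IARS1, SLC1A5 and ASNS are lowest at 24 h in both genotypes.

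The late changes of the lines were then set against one another. In all, 8 members were higher at 18 h in all 4 RCC4 replicate pairs and lower at 24 h in both HCT116 genotypes: SHMT2, MTHFD2, ASNS, SLC7A5, SLC38A2, SLC1A5, CARS1 and SARS1. The share of all tested genes that meet this rule was not counted, so the 8 have no background to be set against. The gap between the lines was widest for SLC7A5, at 0.54 in RCC4 and -0.51 in HCT116 (difference -1.04 ± 0.163), and for ASNS, at 0.38 and -0.56 (-0.94 ± 0.137). In the test of HCT116 against RCC4, 0 of 26 members passed, against 0.0263% of all tested genes, and the 8 had adjusted p from 0.105 to 0.26. The hours differ between the lines (18 h and 24 h), as does the array set of 1 of the 2 RCC4 replicates. The test over all 3 lines gave 0% of all tested genes, with 583 at an unadjusted p under 0.05. Calls without the p53-null H1299 background, which leaves 1 background in that line, are not read here.

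STC2 was higher late in hypoxia in both RCC4 and both HCT116 genotypes. Its late log2 difference was 0.61 and 1.64 in VHL-null and VHL-restored RCC4 and 0.75 and 0.79 in p53-null and p53 wild-type HCT116. In H1299 it has no fold, since 1 array of each genotype was null, at 0 h in p53-null cells and at the labelled 24 h in p53 wild-type cells. Over the 6 backgrounds as labelled the highest mean differences were those of STC2, ALDH18A1 (0.43) and GARS1 (0.12), and the lowest those of PSAT1 (-0.32), NARS1 (-0.29) and MARS1 (-0.27). Without both H1299 backgrounds the same 3 were highest, at 0.95, 0.60 and 0.16, and the same 3 lowest, at -0.45, -0.44 and -0.42. Without the p53 wild-type H1299 background alone the lowest were MARS1 (-0.26), NARS1 (-0.26) and LARS1 (-0.17), with PSAT1 at -0.16, so the place of PSAT1 rests on which H1299 arrays are counted. GARS1, the glycyl enzyme, read 511, 685 and 522 in p53-null and 544, 705 and 587 in p53 wild-type HCT116 over time, and in RCC4 418 and 1290 at 0 h and 456 and 1493 at 18 h in VHL-null cells. No gene passed the test of a shared late change over 6 backgrounds (0% of 7614, with 925 at an unadjusted p under 0.05), nor did any member without both H1299 backgrounds (0%) or without the p53 wild-type one alone (0.0657%). The same holds for 24 h hypoxia over HCT116 and H1299 together (0%, with 427 at an unadjusted p under 0.05), and without the p53 wild-type H1299 arrays (0.0919%).

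**Figure D4:**
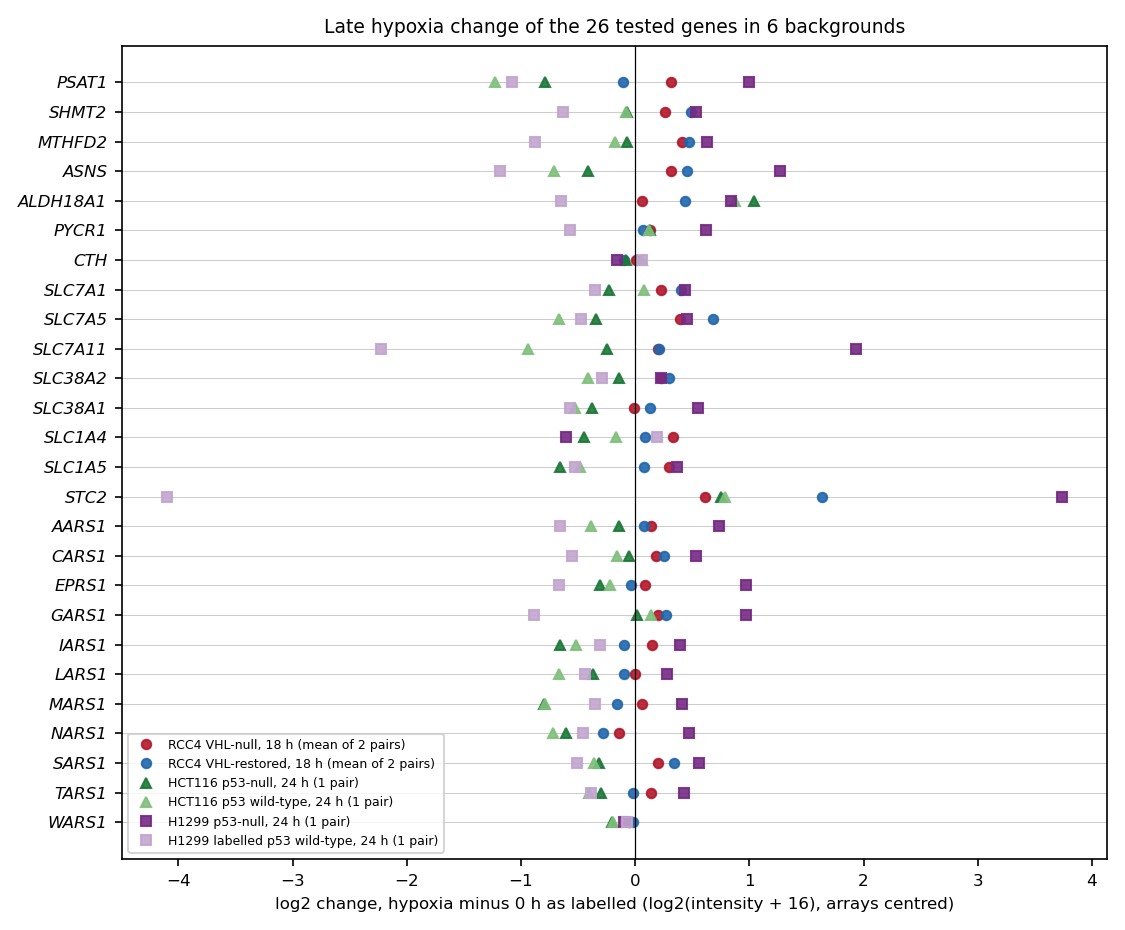
Late hypoxia change of the 26 tested members (rows) in 6 backgrounds, as log2 differences of centred log2(intensity + 16) on the horizontal axis, with 1 point per background. RCC4 points lie mostly right of 0 and HCT116 points left of it, and the 2 H1299 backgrounds mirror each other, as for SLC7A11 at 1.93 and -2.23.

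No member passed the test of p53 genotype. Over the 5 pairs of line and time, 0 of 26 members and 0% of all tested genes passed, with 526 genes at an unadjusted p under 0.05. The pair at H1299 0 h and that at 24 h rest on the doubtful arrays. In HCT116 alone 0 members passed against 0.0263% of all tested genes. Between p53 wild-type and p53-null cells the fitted difference was -0.08 ± 0.281 for PSAT1 and 0.05 ± 0.310 for ASNS. The SE ran from 0.0429 for WARS1 (difference -0.02) to 0.969 for STC2 (0.15), so the size of difference that could be seen varied widely between members.

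In oxygen the lines differed in their baseline. Among the 6 arrays of set 1 at 0 h, 12 of 26 members differed between the lines (limma F test), where 37.2% of all tested genes also did. A difference between the lines was therefore common among all genes. The member count also depended on the array labelled H1299 p53 wild-type 0 h, as given below. The direction was mostly HCT116 over RCC4. ASNS read 235 and 322 in the 2 RCC4 genotypes, 965 and 1156 in HCT116, and 401 and 915 in H1299 as labelled (adjusted p = 0.017). MTHFD2 read 108 and 162, 557 and 601, and 260 and 541 in the same order (adjusted p = 0.00921), and PSAT1 51 and 118, 317 and 302, and 141 and 356 (adjusted p = 0.0372). HCT116 exceeded RCC4 by 1.94 to 2.16 on the log2 scale for these 3.

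The transporters SLC7A5, SLC38A2 and SLC1A4 followed the same order. SLC7A5 read 354 and 389 in RCC4, 709 and 836 in HCT116 and 420 and 574 in H1299 (adjusted p = 0.0071). SLC38A2 read 258 and 235, 560 and 636, and 312 and 380 (adjusted p = 0.00201). SLC1A4 read 180 and 196, 364 and 312, and 301 and 205 (adjusted p = 0.0218). In each of them RCC4 was lowest, HCT116 highest and H1299 between, with no overlap of the RCC4 and HCT116 values.

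ALDH18A1 was instead highest in RCC4, at 146 and 109 in RCC4, 15 and 12 in HCT116 and 6 and 31 in H1299 (adjusted p = 0.00886). The order of HCT116 and H1299 was not settled, since the HCT116 values lie between those of H1299. PYCR1, which follows it in proline synthesis, was highest in HCT116, at 307 and 337 against 155 and 181 in RCC4 and 168 and 247 in H1299 (adjusted p = 0.0144). The 4 synthetases called were IARS1 (513 and 447 in RCC4, 658 and 695 in HCT116, 583 and 821 in H1299), MARS1 (322 and 477, 569 and 570, 515 and 623), TARS1 (305 and 413, 490 and 552, 414 and 546) and WARS1 (308 and 294, 370 and 352, 374 and 379). Each was lowest in RCC4, by 0.41 to 0.69 below HCT116. Without the array labelled H1299 p53 wild-type 0 h, 19 members passed, against 34.6% of all tested genes. The count of called members fell without any 1 RCC4 or HCT116 array, and so did the count of all tested genes. Each such fit leaves 1 array in a line, so no order of neighbouring lines is firm.

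The replicate arrays of RCC4 differed from each other in most members. Replicate 2 (set 2) was higher than replicate 1 (set 1) for 21 of 26 members and lower for 3 in the 8-array fit, against 73.8% of all tested genes called, 21.3% higher and 52.5% lower. The members' median was 0.43 and that of all tested genes -0.19. SLC7A11 and PSAT1 ranked 3 and 4 from the top of all 7614 tested genes, MTHFD2 ranked 24, SLC7A1 32 and SLC7A5 119.

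SLC7A11 read 124, 138, 200 and 150 on the replicate 1 arrays (VHL-null 0 h and 18 h, VHL-restored 0 h and 18 h) and 764, 878, 428 and 710 on the replicate 2 arrays. It was higher by 1.45 ± 0.152 (adjusted p = 1.98e-06), with no overlap. PSAT1 read 51, 79, 118 and 90, then 434, 448, 326 and 331 (1.43 ± 0.13, adjusted p = 5.76e-07). SLC7A1 read 236, 273, 246 and 277, then 840, 955, 681 and 1002 (1.08 ± 0.0765, adjusted p = 7.8e-08). These 3 differences exceed any hypoxia change of the same genes in RCC4. The other RCC4 arrays kept to their set, as PSAT1 lay between 40 and 98 on the 2 h and 6 h arrays and between 284 and 475 on the 1 h, 4 h and reoxygenated arrays.

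WARS1, CTH and SLC1A4 were the 3 lower members, at -0.42, -0.28 and -0.27, and each turned positive when the arrays were not centred (0.18, 0.31 and 0.32). Without centring the median of all tested genes was 0.41, against -0.19 with it, and the members' median was 1.02. Under quantile normalization the medians were -0.11 and 0.61, with 21 members higher and 2 lower. The pathway genes outside the list were mixed, where 21.3% of all tested genes were called higher and 52.5% lower. Of the pathway genes tested, 3 of 6 other cytosolic synthetases and 3 of 9 ATF4 pathway genes were higher and 0 lower. The mitochondrial synthetases had 2 higher and 2 lower of 6, and the other enzymes 5 and 5 of 12. The other transporters had 0 higher and 5 lower of 7. Among these lists KARS1 (0.69, adjusted p = 2.05e-06), GOT1 (0.63, adjusted p = 8.2e-05) and ATF3 (1.09, adjusted p = 2.82e-06) were higher in replicate 2, and ASS1 (-0.65, adjusted p = 1.18e-05) was lower. SESN2, a restrainer of mTORC1, was higher by 0.36 (adjusted p = 0.00231). The culture and the array set cannot be told apart here, since each replicate lies in 1 set.

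**Figure D5:**
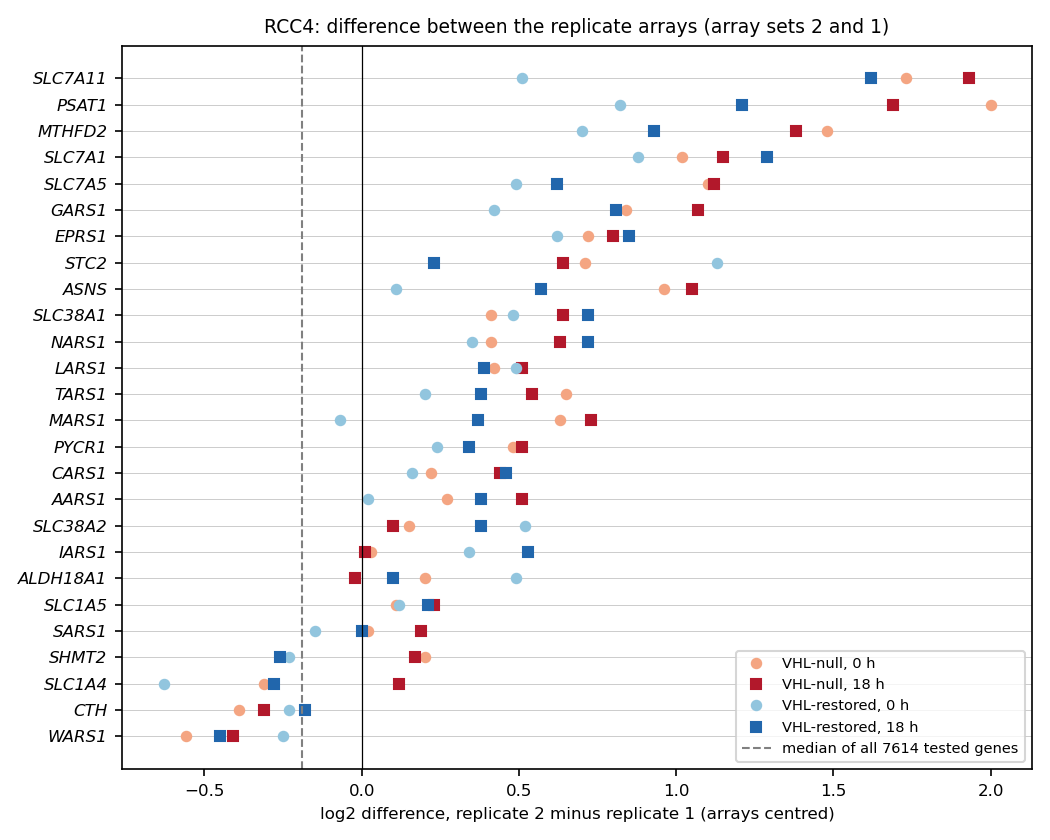
Log2 difference between replicate 2 and replicate 1 of RCC4 (horizontal axis, centred arrays) for the 26 tested members (rows, ordered by mean), with 1 point for each genotype and time. The dashed line is the median of all 7614 tested genes at -0.19, and SLC7A11, PSAT1, MTHFD2 and SLC7A1 lie farthest to the right.

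The rest of the pathway gave a frame for the members. Of 12 measured ATF4 pathway genes outside the list, 9 were tested, and 5 rose at 18 h in RCC4, against 1.77% of all tested genes, though 1 of the 9 (DDIT4) passed without the array set term. The 5 included ATF3 (1.5, adjusted p = 0.000204), DDIT4 (0.96, adjusted p = 0.00476), SESN2 (0.57, adjusted p = 0.00487) and TRIB3 (1.19, adjusted p = 0.018). None of the 6 tested cytosolic synthetases outside the list, 6 mitochondrial synthetases, 7 other transporters or 12 other amino acid and one-carbon enzymes passed in that comparison. After 4 h of reoxygenation SESN2 fell by 1.05, DDIT4 by 1.05 and CEBPB by 0.92 (adjusted p from 0.000214 to 0.0113). At 24 h in HCT116, GOT1, the cytosolic aspartate aminotransferase, fell by 1.00 (adjusted p = 0.0271), TRIB3 fell by 0.73 (adjusted p = 0.0423) and DDIT4 rose by 0.52 (adjusted p = 0.0432). TRIB3, a pseudokinase induced by ATF4, thus rose in RCC4 and fell in HCT116, and the difference between the lines was not tested for it here. Its RCC4 rise was uneven: with the replicate block it was 1.83 in VHL-restored and 0.54 in VHL-null cells (interaction -1.29, adjusted p = 0.000208). At 0 h TRIB3 was higher in VHL-null than in VHL-restored cells (1.51, adjusted p = 0.0346 without the block). With the block, 2 of the 9 were higher at 0 h in VHL-null cells and 1 lower, against 7.51% of all tested genes called. DDIT4 was higher there by 0.89 (adjusted p = 0.000216) and CEBPB lower by 0.72 (-0.72, adjusted p = 0.000135). DDIT4 rose by 1.31 in VHL-restored and 0.62 in VHL-null cells, without a called interaction. Which factor moved these genes was not tested.

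The 5 members below the filter are described only. CBS, which starts cysteine synthesis from homocysteine, was null on 22 of 30 arrays and reached 60. YARS1 was null on 16 and reached 98. VLDLR, a lipoprotein receptor, was null on 7 and lay between 59 and 209 in RCC4. PSPH, the last enzyme of serine synthesis, read 5 to 52 on set 1 RCC4 arrays and 87 to 165 on set 2 arrays, as PSAT1 did at a higher level. MTHFD1 ran from 4 to 256. Where a gene had several probe sets they did not always agree: in HCT116 at 24 h the chosen SLC7A1 probe set gave -0.23 and 0.08 in the 2 genotypes and another gave -0.66 and -0.85.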

How the data were processed

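RNA of 30 cultures was hybridised to a custom Affymetrix array, 1 array each. The deposited table holds 1 linear intensity per probe set and array. Its summarization and normalization, the authors' software and the meaning of null entries are not given in the sources used here. Null entries were set to 0. Of 35356 probe sets, 16905 carry 1 gene symbol in the platform annotation, and 573 with several symbols were not used. The brightest probe set by mean log2(intensity + 16) stood for each of 12690 genes, and no value column belonged to another series.

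Each array was centred on its median log2 value. The 60% of genes with the highest mean, 7614, were fitted with limma 3.58.1 in R 4.3.3, with Benjamini-Hochberg adjustment over all of them and a threshold of 0.05. The fits were tested on simulated data of independent noise, without an array set or replicate difference. That check therefore cannot show how such differences affect the calls. RCC4 0 h and 18 h were compared over 8 arrays, and times over 20 arrays with genotype and array set as terms. The p53 genotypes served as replicates in HCT116, and H1299 and HCT116 arrays were paired by line and time in the test of p53. Replicate numbers pair the RCC4 arrays: each number lies in 1 array set, and the replicate differences of the 4 groups correlated at 0.794 to 0.916 across genes. Single arrays were compared by a 1.5-fold rule without a test.

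The members, the other gene lists and the tests were chosen with earlier results of these data known. Array values are given for members that passed any test and for the 3 largest rises and falls over the 6 late backgrounds. For the other lists, up to 4 called genes per comparison are named. The HCT116 time fits, the replicate comparison, the H1299 exclusions, the label check and single-array omissions were added after seeing the data. Alternatives were a pseudocount of 32, no centring, quantile normalization, no filter, genes listed on every array, the mean of all probe sets, no array set term and the replicate block. Promoter windows are RefSeq's on GRCh38.p14. The number of arrays limits the precision.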

Additional observations from a re-analysis of the deposited data

Results flagged for a closer look

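The late hypoxia changes of 8 members ran in opposite directions in the 2 lines, higher in all 4 RCC4 replicate pairs and lower in both HCT116 genotypes. How many of all tested genes did the same was not counted. The difference, HCT116 minus RCC4 on the log2 scale, was -0.45 for SHMT2, -0.57 for MTHFD2, -0.94 for ASNS and -1.04 for SLC7A5. It was -0.54 for SLC38A2, -0.76 for SLC1A5, -0.32 for CARS1 and -0.61 for SARS1. None of the 8 passed the limma test of the difference (adjusted p 0.105 to 0.26).

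STC2 rose less in VHL-null than in VHL-restored RCC4 in the fit with the replicate block (interaction -1.03, adjusted p = 0.0323), and the same value missed the threshold without the block (adjusted p = 1).

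On the H1299 arrays, 25 of 26 members had opposite 24 h differences in the 2 p53 genotypes as labelled. The difference was not tested, since each genotype has 1 array per time, and p53 and the labelling cannot be told apart.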

How the results depend on the processing

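The number of members passing the test moved with the processing in most comparisons that had calls. With the replicate block it went from 0 to 5 for hypoxia in VHL-restored RCC4, 3 for VHL at 0 h, 1 for VHL at 18 h and 1 for the interaction, and the block changed no other call. RCC4 at 18 h gave 4, but 0 without the array set term, 1 without centring or without the filter, and 2 under quantile normalization, 1 higher and 1 lower. Reoxygenation gave 2, but 1 without the set term or under quantile normalization and 6 without the filter. Without centring, the share of reoxygenation calls that were higher went from 36% to 0.559%. HCT116 gave 1 at 12 h and 7 at 24 h, against 0 and 3 over genes listed on every array and 0 and 0 without the filter, and 2 at 12 h under quantile normalization. The 24 h test over HCT116 and H1299 gave 0, and 3 in HCT116 alone. The lines in oxygen gave 12, but 6 without centring and 19 without the H1299 p53 wild-type array. Leaving out 1 array, pair or background gave 1 to 5 members for RCC4 at 18 h, 1 to 9 for reoxygenation, 0 to 1 and 0 to 4 for HCT116 at 12 h and 24 h, 3 to 19 for the lines in oxygen (3 to 16 but for the H1299 p53 wild-type array), 0 to 1 for the late change by line and 21 to 23 for the replicate comparison. Signs turned for CTH (0.31), SLC1A4 (0.32) and WARS1 (0.18) in the replicate comparison without centring. They also turned for SLC7A1 in VHL-restored hypoxia, to -0.04 without 0 h replicate 1 and -0.24 without 18 h replicate 2, in a range up to 1.05 without 18 h replicate 1. Those fits have no block and set unequal array sets against each other, and within the replicate pairs SLC7A1 was higher both times (0.20 and 0.61). Of the other values of single members under an alternative, 577 kept direction and side of the threshold, 156 lost the call and 10 gained it. Where 1 array of a group was left, it was assumed to vary like the other groups. The counts of all tested genes also moved when 1 array, pair or background was left out, in most comparisons that had calls. A moved member count can therefore not be read as particular to the members. Intensities near 0, such as ALDH18A1 in HCT116, limit what a fold can show.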
